A study of Mus musculus with 38 samples.

Results

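Genes that brain endothelial cells are known for, namely Cldn5, Cdh5, Pecam1, Flt1, Kdr, Tek, Slc2a1, Abcb1a, Slco1a4 and Ly6c1, were followed in RNA from the adBNST, the anterodorsal bed nucleus (stria terminalis), which lies in the forebrain and is linked to anxiety and the stress response. They were chosen by name as endothelial and blood-brain barrier genes, and make up 10 of the 25230 genes in the count table. RNA-seq had been made from microdissections of wild-type (WT) mice of both sexes, which had been kept as controls or had gone through 6 weeks of chronic variable mild stress, a changing schedule of mild stressors such as cold, restraint, wet bedding and light changes. The 38 libraries came from females (10 control, 9 stressed) and males (10 control, 9 stressed). The series names sex, condition and their interaction as its comparisons. No age is given, and no agent or altered allele other than the WT genotype. The labels do not say whether each library came from 1 mouse, so the p-values measure the spread between these libraries.

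Endothelial cells line the vessels of the brain and form the blood-brain barrier. Tight junctions seal the cells to each other, vesicle traffic across them is kept low, and what the brain needs or must keep out is handled by transporters and efflux pumps in their membranes. Growth factor receptors on the same cells, for VEGF and the angiopoietins, control the growth and stability of the vessels. In a tissue dissection endothelial cells are a minority, so each of these RNAs is diluted by neurons and glia. In such bulk samples fewer cells of a type and less RNA per cell cannot be told apart.

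The 10 genes divide by role. Cldn5 (claudin-5) is the main claudin of brain tight junctions, Cdh5 (VE-cadherin) holds the adherens junctions together, and Pecam1 (CD31) is an adhesion molecule at endothelial contacts. Flt1 and Kdr are VEGF receptors, Kdr carrying most of the growth signal and Flt1 binding VEGF with little signal of its own. Tek (Tie2) is the angiopoietin receptor. Slc2a1 (GLUT1) brings glucose into the brain, Abcb1a (P-glycoprotein) pumps drugs and other lipophilic compounds back to the blood, and Slco1a4 (Oatp1a4) carries organic anions. Ly6c1 encodes a small membrane-anchored protein used as a marker of brain endothelium in mice.

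Ly6c1 and Abcb1a each have a near copy beside them in the genome, and the coding sequences are shown because they set how surely reads can be given to the right gene. In the GENCODE M21 annotation of GRCm38, the assembly that mm10 names, Ly6c1 (chr15:75044018-75048830, minus strand) and Ly6c2 (chr15:75108158-75111970) had coding sequences of 393 bases with 97.7% identical positions. Abcb1a (chr5:8660077-8748575, plus strand) and Abcb1b (chr5:8798147-8866315) were 87.7% identical in their aligned coding sequences. The first 120 aligned coding bases of each follow, with the differing bases in capitals, 6 in the first pair and 15 in the second.
Ly6c1: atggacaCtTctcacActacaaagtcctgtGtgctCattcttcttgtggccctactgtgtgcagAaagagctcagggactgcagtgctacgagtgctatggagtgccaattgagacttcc
Ly6c2: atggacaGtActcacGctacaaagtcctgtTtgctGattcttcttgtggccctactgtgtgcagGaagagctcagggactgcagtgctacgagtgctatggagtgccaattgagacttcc
Abcb1a: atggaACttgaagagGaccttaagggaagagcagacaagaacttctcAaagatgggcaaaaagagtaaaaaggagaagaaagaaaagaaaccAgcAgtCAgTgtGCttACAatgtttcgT
Abcb1b: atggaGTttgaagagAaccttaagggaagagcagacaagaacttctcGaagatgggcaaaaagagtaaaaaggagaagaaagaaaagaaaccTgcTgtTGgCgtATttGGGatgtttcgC

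Of the 50-base words in its transcripts, Ly6c1 shared 32.8% with other genes and Abcb1a 17.6%, against 1.61% for Slco1a4 and less than that for the other members. Ly6c2 had 0 to 7 counts a library (median 0) and at most 1.4% of the counts of the pair, and was too low to be tested. Abcb1b had 12 to 226 counts (median 80), which was 2.51% to 25.8% of the pair (median 9.01%). Levels of Ly6c1 and Abcb1a are therefore less certain than those of the other 8 genes, since how reads that fit both copies were counted is not given in the sources used here.

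Promoter windows from RefSeq (GRCm38.p6, 250 bases before to 50 after the start) were matched for 8 of the 10 genes, with 9 windows in all. Those of Flt1, Kdr, Tek and Cldn5 are shown, since Flt1, Kdr and Tek varied together across the libraries and Cldn5 did not vary with them, as described further on. ETS factors are a family of transcription factors that endothelial genes are known to use, and capitals mark the ETS-type words AGGAAG and CCGGAA found on either strand.
Flt1, chr5:147725962-147726261, minus strand: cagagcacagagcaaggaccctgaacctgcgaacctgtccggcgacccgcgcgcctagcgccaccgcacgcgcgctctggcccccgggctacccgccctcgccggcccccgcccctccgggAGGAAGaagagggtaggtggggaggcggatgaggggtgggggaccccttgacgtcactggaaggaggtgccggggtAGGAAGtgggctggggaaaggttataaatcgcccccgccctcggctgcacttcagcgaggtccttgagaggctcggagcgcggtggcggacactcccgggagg
Kdr, chr5:75978406-75978705, minus strand: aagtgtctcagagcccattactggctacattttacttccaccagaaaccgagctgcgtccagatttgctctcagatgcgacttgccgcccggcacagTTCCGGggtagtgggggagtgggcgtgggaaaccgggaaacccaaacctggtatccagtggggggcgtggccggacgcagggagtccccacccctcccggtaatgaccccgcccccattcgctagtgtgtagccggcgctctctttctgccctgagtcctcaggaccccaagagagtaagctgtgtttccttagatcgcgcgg
Tek, chr4:94739039-94739338, plus strand: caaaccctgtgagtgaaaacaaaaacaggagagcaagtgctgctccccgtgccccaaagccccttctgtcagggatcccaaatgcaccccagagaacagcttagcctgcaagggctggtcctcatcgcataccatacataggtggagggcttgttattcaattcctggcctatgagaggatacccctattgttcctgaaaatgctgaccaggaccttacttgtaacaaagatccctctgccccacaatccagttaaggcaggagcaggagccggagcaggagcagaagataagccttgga
Cldn5, chr16:18776597-18776896, plus strand: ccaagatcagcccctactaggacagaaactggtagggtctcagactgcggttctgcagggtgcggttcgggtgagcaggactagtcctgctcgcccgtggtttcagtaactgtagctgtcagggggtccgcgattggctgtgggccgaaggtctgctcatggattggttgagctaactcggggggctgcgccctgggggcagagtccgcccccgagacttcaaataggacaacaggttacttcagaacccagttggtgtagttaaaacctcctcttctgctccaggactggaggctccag

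Flt1 had 2 matches and Kdr 1, on the opposite strand, while the Tek and Cldn5 windows held neither word. Over the members, 5 of 9 windows had at least 1 of the 2 words, against 45.2% of 27025 windows taken as 1 for each gene symbol. The shares are not counted alike, since both windows of Ly6c1 are among the 9. Only 1 of these held an ETS-type word. The Abcb1a window, which held AGGAAG, was at chr5:8566841-8567140, outside the GENCODE interval given above for that gene. The GC box word GGGCGG was in 4 of 9 member windows and in 35.9% of the 27025, and the TATA box word TATAAA in 3 of 9 and in 14.2%. Base composition also differed, with 70.7% G and C in the Flt1 window, 60.7% in Kdr, 58.3% in Cldn5 and 52.0% in Tek. The median over the 27025 windows was 52.7%. These are matches of letters in a short window and are given as a description.

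Total counts ran from 9.1 M to 84.8 M a library (median 27.32 M), and all 10 genes passed the filter on low counts, with between 57 and 8393 counts in any library. Levels are given as CPM, counts scaled to a common effective library size. Neuronal RNA was present throughout, with Gad1 and Gad2, the enzymes that make GABA, at 464 to 872 and 658 to 1470 CPM; markers particular to the adBNST were not checked. A set of 5 libraries stood apart by myelin transcripts (control females 1 and 6, control male 3, stressed females 1 and 2), with 20800 to 26200 CPM summed over 10 oligodendrocyte genes against 4690 to 16600 CPM in the other 33. Stressed male 5 had 3340 CPM summed over 10 choroid plexus genes, where the median library had 101 CPM. Results of the 10 genes are therefore given with and without these libraries where they moved. Stress differences of other genes are over all 38 libraries.

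Per kilobase of the longest coding transcript, the glucose transporter was the most abundant of the 10, with Slc2a1 at 30.28 CPM per kb averaged over the 38 libraries. Ly6c1 followed at 22.75, Cldn5 at 19.42, Slco1a4 at 13.58 and Flt1 at 11.47 CPM per kb. Lower levels were found for Abcb1a (6.08 CPM per kb), Pecam1 (5.61), Cdh5 (3.70), Tek (3.03) and Kdr (2.52). The order depends on which bases count as the gene. Over all annotated exons merged, Ly6c1 stood at 11.45 and Flt1 at 5.86 CPM per kb, Cldn5 moved to the second place at 19.42, and Cdh5 (3.52) passed Pecam1 (3.10). The ranks in between thus depend on the length used, whereas Slc2a1 was first and Kdr last on both scales.

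The library values show how far each gene moved within a group (the plot of levels by library). Cldn5, the tight junction claudin, ran from 16.1 through a median of 27.6 to 53.1 CPM in control females and from 18.9 through 26.2 to 38.9 CPM in stressed females. In males it ran from 20.3 through 25.6 to 33.8 CPM in controls and from 20.9 through 26.8 to 34.6 CPM after stress. The 4 groups overlapped almost entirely, with means ± SD of 28.5 ± 9.69 (n = 10), 27.7 ± 8.47 (n = 9), 27.1 ± 4.63 (n = 10) and 26.8 ± 4.87 CPM (n = 9). The highest value, 53.1 CPM, was control female 6, 1 of the libraries rich in myelin transcripts.

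Cdh5, the adherens junction cadherin, ran from 13.9 through 16.4 to 22.9 CPM in control females and from 11.1 through 13.3 to 17.0 CPM in stressed females. Control males spanned 9.21 to 17.5 CPM around a median of 15.0, and stressed males 11.2 to 24.0 CPM around 15.4. Control females were thus the highest group by mean, at 17.1 ± 3.30 CPM (n = 10), while stressed females and control males shared a mean of 13.4 CPM, with SDs of 2.00 and 3.26. Every group overlapped every other. Pecam1, its neighbour at cell contacts, had means of 22 ± 4.71, 18.6 ± 2.66, 17.0 ± 4.09 and 19.5 ± 3.12 CPM in control females, stressed females, control males and stressed males, within extremes of 10.5 and 29.2 CPM.

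**Figure D1:**
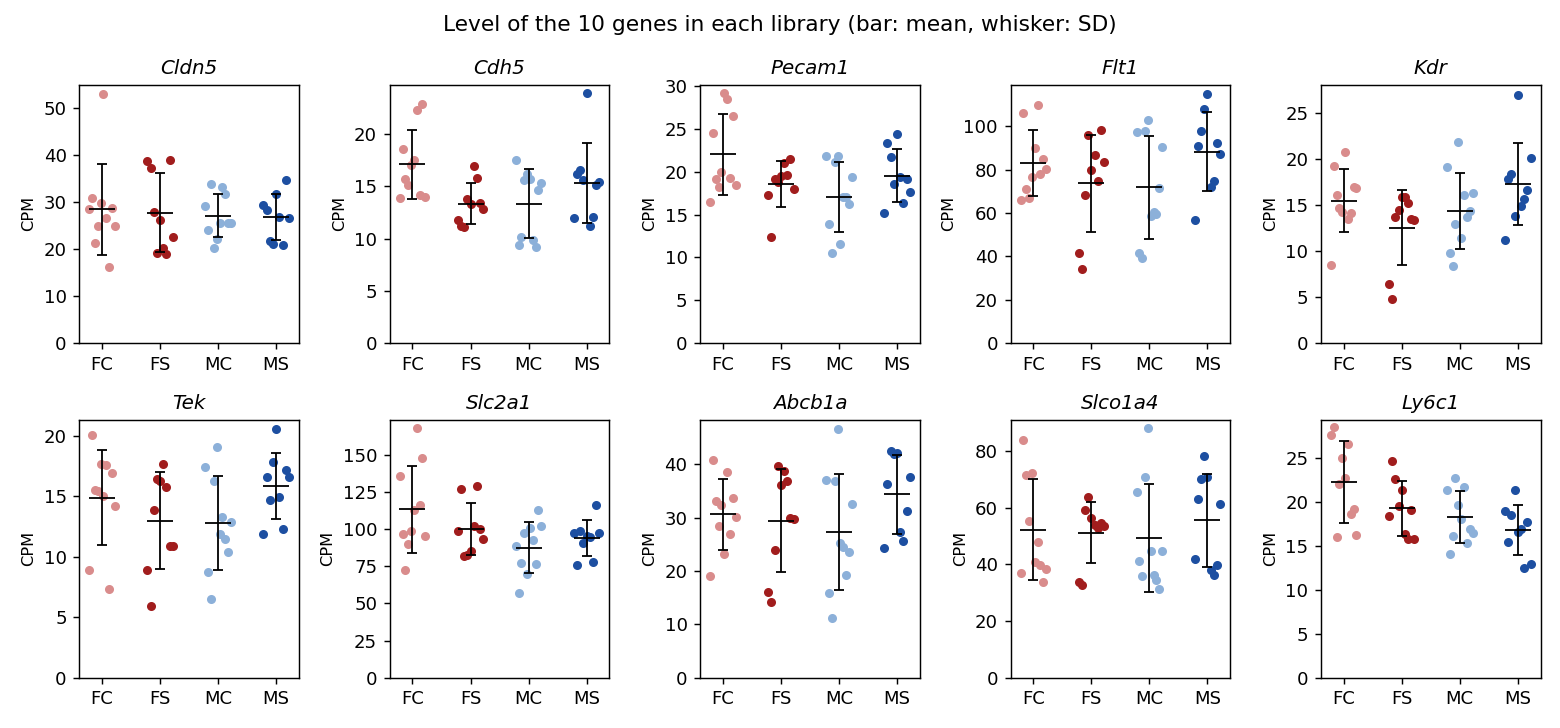
CPM of each of the 10 genes (y axis, linear, from 0) in the 38 libraries, by group on the x axis (FC, control females, n = 10; FS, stressed females, n = 9; MC, control males, n = 10; MS, stressed males, n = 9). Points are libraries, the bar is the mean and the whisker the SD; the groups overlap in every panel, and the Cldn5 point at 53.1 CPM is control female 6.

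The receptors spread more widely. Flt1 ran from 65.9 through 79.1 to 110 CPM in control females, from 33.9 through 80.0 to 98.1 in stressed females, from 39.0 through 65.8 to 103 in control males and from 56.7 through 91.0 to 115 CPM in stressed males. Values of 33.9 and 41.6 CPM in stressed females and 39.0 CPM in control males came from 3 of the 5 libraries rich in myelin transcripts, and control male 2, which is not among these, was also at 41.6 CPM. Kdr ran from 4.76 CPM in stressed female 2 to 26.9 CPM in stressed male 5, the library with choroid plexus transcripts, with group means of 15.5 ± 3.39, 12.5 ± 4.08, 14.4 ± 4.12 and 17.3 ± 4.45 CPM in the order above. Tek had its extremes in the same libraries, 5.95 and 20.6 CPM, and means of 14.9 ± 3.94, 13 ± 4.02, 12.8 ± 3.92 and 15.8 ± 2.73 CPM. In all 3 receptor genes stressed males had the highest mean, with overlap between all groups.

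Among the transporters, Slc2a1 ran from 72.5 through 106 to 168 CPM in control females, from 81.6 through 98.4 to 129 in stressed females, from 56.7 through 90.7 to 113 in control males and from 76.0 through 95.4 to 116 CPM in stressed males. Its 3 highest libraries were control females, so that this group had both the highest mean (113 ± 29.2 CPM) and the widest spread. Abcb1a, the efflux pump, had means of 30.6 ± 6.63, 29.5 ± 9.59, 27.3 ± 10.9 and 34.4 ± 7.38 CPM, with a lowest value of 11.2 CPM in control male 3 and a highest of 46.6 CPM in control male 5. Slco1a4 spanned 31.3 to 88.1 CPM, both in control males, with means of 52.1 ± 17.8, 51.1 ± 10.8, 49.3 ± 18.9 and 55.5 ± 16.5 CPM. The marker Ly6c1 ran from 16.0 to 28.5 CPM in control females and from 12.5 to 21.3 CPM in stressed males, the groups with the highest (22.2 ± 4.61 CPM) and lowest (16.7 ± 2.83 CPM) means.

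The first question was whether chronic stress moved these genes in either sex. In females all 10 had a log2 fold change below 0, and in males 8 of 10 had one above 0, but none passed edgeR's quasi-likelihood test in either sex at a Benjamini-Hochberg adjusted p of 0.05. The background was equally empty, since 0 of the 16309 genes tested (0%) were called in females and 0 (0%) in males, also by DESeq2 and by limma voom. At an unadjusted p under 0.05 there were 308 genes (1.89%) in females and 655 (4.02%) in males, and among the 10 genes 1 and 0. The median log2 fold change of the 10 was −0.185 in females, where the median of all tested genes was 0.01 and 46.4% were below 0. In males it was 0.195, where the median of all genes was −0.02 and 45% were above 0. Several of the 10 genes varied together across the libraries, as described further on. Here and in the later counts of directions, the genes are thus not separate observations.

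Cdh5 had the largest difference in females, a log2 fold change of −0.36 ± 0.14 (SE; 95% interval −0.64 to −0.08), with an unadjusted p of 0.0141 in edgeR's test and an adjusted p of 1. Kdr stood at −0.30 ± 0.19, Pecam1 at −0.24 ± 0.13 and Ly6c1 at −0.21 ± 0.12. Tek was at −0.19 ± 0.185, Slc2a1 at −0.18 ± 0.13 and Flt1 at −0.17 ± 0.18, and the intervals of all these genes but Cdh5 held 0. Cldn5 (−0.04 ± 0.16), Abcb1a (−0.05 ± 0.20) and Slco1a4 (−0.025 ± 0.197) were near 0, with intervals that still reach 0.28, 0.35 and 0.37 above it. Without the 5 libraries rich in myelin transcripts the median of the 10 was −0.10, and 8 of 10 were below 0. Kdr was then at −0.11, Tek at −0.09, Flt1 at −0.001 and Pecam1 at −0.15, while Cdh5 was at −0.33.

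In males the largest estimates were those of Abcb1a (0.33 ± 0.20), Tek (0.30 ± 0.18), Flt1 (0.30 ± 0.18) and Kdr (0.26 ± 0.19), the efflux pump and the 3 receptors. Cdh5 (0.20 ± 0.14) and Pecam1 (0.19 ± 0.13) followed, then Slco1a4 (0.17 ± 0.20) and Slc2a1 (0.10 ± 0.13). Cldn5 was at −0.02 ± 0.16 and Ly6c1 at −0.12 ± 0.12. Adjusted p-values in edgeR's test were between 0.863 and 0.988, and no interval excluded 0 (the plot of stress differences by sex). Leaving out stressed male 5, which held the highest Cdh5, Pecam1, Flt1, Kdr and Tek values of its group, brought the median from 0.195 to 0.145, Cdh5 to 0.105 and Kdr to 0.17.

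**Figure D2:**
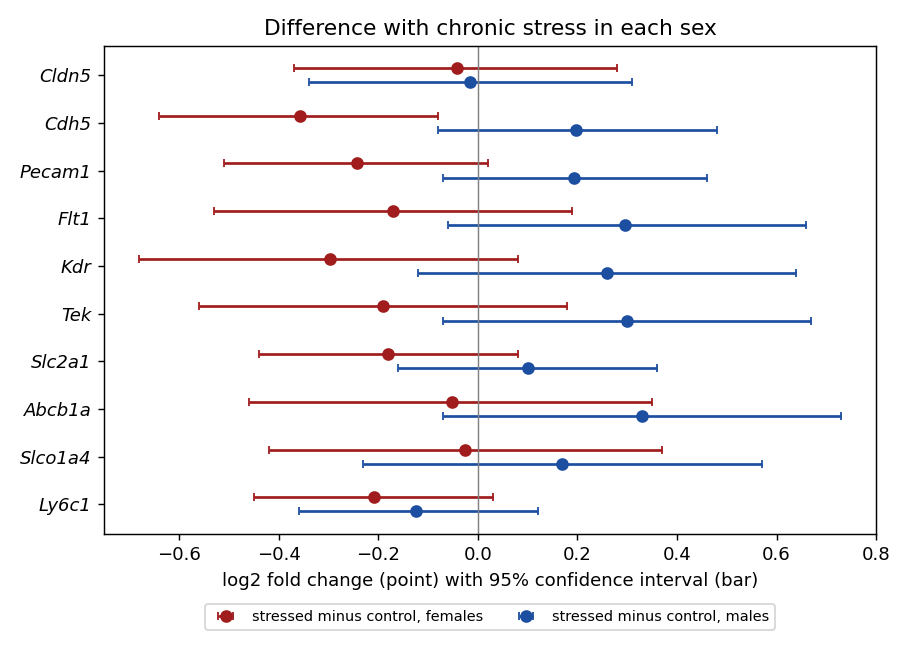
Log2 fold change of stressed against control libraries (x axis) for each gene (y axis), in females (red, 9 against 10 libraries) and males (blue, 9 against 10), with the edgeR estimate as a point and its 95% confidence interval as a bar. The female points lie between −0.36 and −0.025 and the male points between −0.12 and 0.33; Cdh5 in females is the only one of the 20 intervals that leaves out 0.

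The difference of the stress effects, males minus females, was tested as the interaction of sex and stress. It was above 0 for all 10 genes, with a median of 0.41 against −0.04 over all tested genes, of which 44.2% were above 0. Again 0 of 16309 genes (0%) passed by edgeR, DESeq2 or limma voom, while 736 (4.51%) had an unadjusted p under 0.05, among them 3 of the 10. These were Cdh5 (0.55 ± 0.20, unadjusted p = 0.00741), Pecam1 (0.435 ± 0.185, unadjusted p = 0.0239) and Kdr (0.555 ± 0.265, unadjusted p = 0.0425), each with an adjusted p of 0.845 in edgeR's test. Tek (0.49 ± 0.26), Flt1 (0.47 ± 0.25), Abcb1a (0.38 ± 0.28) and Slc2a1 (0.28 ± 0.18) lay in the same range, Slco1a4 at 0.19 ± 0.28 and Ly6c1 at 0.085 ± 0.168 lower. Cldn5, at 0.025 ± 0.228, was the smallest. The median was 0.26 without the 5 libraries rich in myelin transcripts and 0.38 without stressed male 5. Without those 5 libraries Kdr was at 0.31, Tek at 0.32, Flt1 at 0.23 and Abcb1a at 0.22, while Cdh5 was at 0.49. With the mean log2 level of a separate list of 25 endothelial genes as a covariate the interaction median was 0.05, with 6 of 10 above 0. This covariate takes out variation that the 10 genes share with other endothelial genes. A smaller median thus follows largely from its choice, and no conclusion is drawn from it.

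Stress averaged over the sexes gave a median of −0.02 for the 10 genes, 4 above and 6 below 0, and 0 of 16309 genes (0%) were called, with 239 (1.47%) at an unadjusted p under 0.05.

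Sex was compared within the controls and within the stressed mice. In controls all 10 genes had a male minus female difference below 0, with a median of −0.21 against 0.002 over all genes. None of the 10 was among the 11 genes called by edgeR (0.0674% of 16309), and 4 had an unadjusted p under 0.05, as did 679 genes (4.16%). Slc2a1 stood at −0.37 ± 0.125 (unadjusted p = 0.00474, adjusted p = 0.748 by edgeR), Pecam1 at −0.37 ± 0.13 (unadjusted p = 0.00642, adjusted p = 0.79), Cdh5 at −0.36 ± 0.135 and Ly6c1 at −0.29 ± 0.12. In terms of levels, that is 113 ± 29.2 CPM of Slc2a1 in 10 control females and 87.4 ± 17.0 CPM in 10 control males. In stressed mice 7 of the 10 differences were above 0, with a median of 0.16, and none was among the 14 called genes (0.0858%). That median was 0.09 without stressed male 5, 0.05 without the 5 libraries rich in myelin transcripts (6 above 0) and 0.03 with the length index described further on as a covariate (5 above 0). An unadjusted p under 0.05 was found for Kdr, as for 1816 genes (11.1%). The comparison in controls shares its control females with the comparison of stress in females and the interaction, and its control males with stress in males, so these directions are not separate observations.

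The replicate numbers of the labels also divided the libraries. Libraries numbered from 6 were compared with those numbered up to 5, with the group in the model, since the 2 runs of numbers differed for 7414 of 16309 genes (45.5%). What the numbers stand for is not given in the labels. Of the 10 genes, 3 passed edgeR's test, 1 up and 2 down, a smaller share than the background. Slco1a4 fell by 0.45 ± 0.12 on the log2 scale (adjusted p = 0.00229), from 59.6 ± 17.2 CPM in 20 libraries to 43.5 ± 8.69 CPM in 18. Stressed females did not share this fall, with 32.6 to 63.6 CPM up to number 5 and 52.9 to 54.7 CPM from 6. Ly6c1 fell by 0.23 ± 0.08 (adjusted p = 0.015), from 20.5 ± 3.97 to 17.7 ± 3.38 CPM. Slc2a1 rose by 0.24 ± 0.08 (adjusted p = 0.0184), from 90.9 ± 18.1 to 107 ± 22.6 CPM.

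The ranges in the first and the second run overlapped in each of these, from 32.6 to 88.1 and from 31.3 to 61.3 CPM for Slco1a4, from 14.1 to 28.5 and from 12.5 to 26.5 CPM for Ly6c1, and from 56.7 to 136 and from 76.8 to 168 CPM for Slc2a1 (the plot of levels by replicate number). The other 7 genes were between −0.07 (Tek) and 0.11 (Kdr). Markers of other cells differed along with them, since all 10 oligodendrocyte genes were lower (median −0.92) and all 7 ependymal genes higher (median 1.53) in the libraries numbered from 6, each past the test. Their part in the differences of Slco1a4, Ly6c1 and Slc2a1 was not tested. Within the numbers up to 5 the stress medians of the 10 genes were −0.25 in females and 0.25 in males, and from 6 they were −0.22 and 0.18. The interaction median was 0.535 in the first run and 0.29 in the second, with 9 of 10 genes above 0 in each. In stressed mice the male minus female median was 0.40 in the first run and −0.135 in the second.

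**Figure D3:**
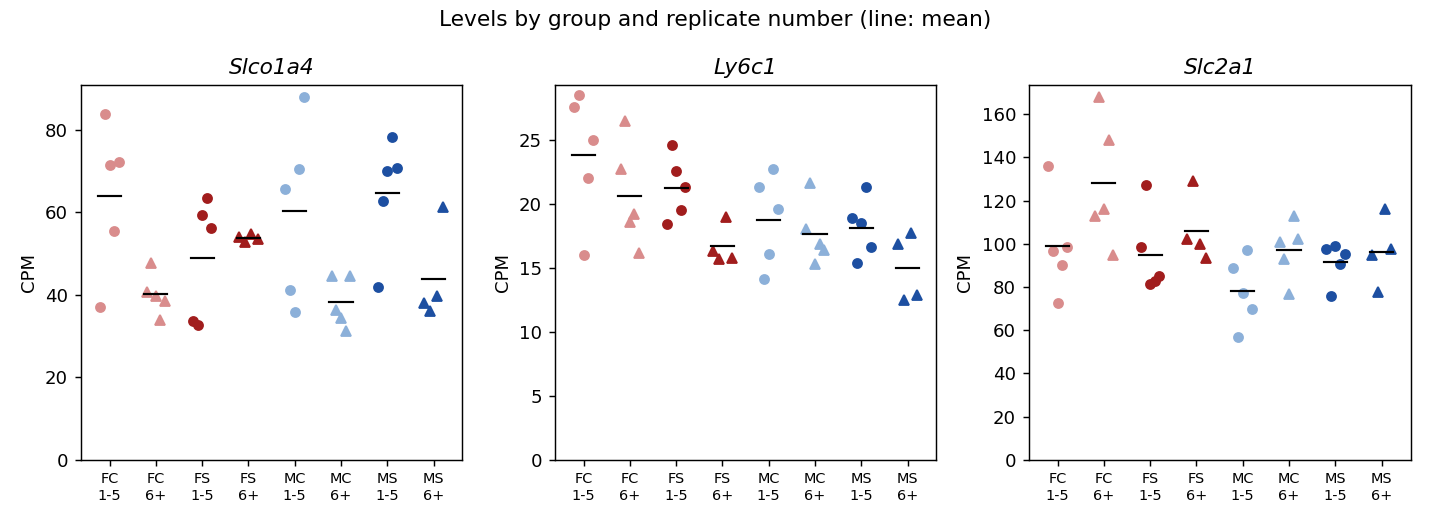
CPM of Slco1a4, Ly6c1 and Slc2a1 (y axis, linear, from 0) by group and by replicate number on the x axis (circles, numbers up to 5; triangles, numbers from 6; line, mean of the points above each label). Slco1a4 has means of 59.6 and 43.5 CPM over the 20 and 18 libraries, with the ranges overlapping. In stressed females alone the later numbers lie inside the range of the earlier ones and have the higher mean.

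Some of the 10 genes varied together from library to library. Of the 45 pairs, 22 had a Spearman correlation of log2 CPM over the 38 libraries with a permutation p that passed at an adjusted p of 0.05 over the 45. Among these, 1 was negative, that of Cldn5 with Abcb1a. The share of passing pairs over all tested genes was not computed, so the 22 have no background beside them. Abcb1a and Flt1 were the closest pair, with r = 0.90 and rho = 0.85 (permutation p = 1e-05 for both, the smallest that 100000 resamples can give; adjusted p = 3.21e-05 and 4.09e-05). Without the 2 libraries farthest from the median r was 0.86, within the numbers up to 5 it was 0.96 and from 6 it was 0.67. Cdh5 and Pecam1, both at cell contacts, had r = 0.70 and rho = 0.76 (permutation p = 1e-05 for both), with r = 0.83 up to number 5 and 0.55 from 6.

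Cdh5, Flt1, Kdr, Tek, Pecam1 and Abcb1a formed a block, put together after the values were seen and given here without a test, in which rho lay between 0.59 and 0.85 for all 15 pairs. In the 33 libraries without the 5 rich in myelin transcripts it lay between 0.44 and 0.84, and Pearson's r between 0.77 and 0.96 up to number 5 and between 0.19 and 0.73 from 6. Slco1a4 passed with 6 of the other 9 genes, with rho up to 0.77 for Abcb1a. Up to number 5 its r with those 6 genes was 0.75 to 0.93, and from 6 it was 0.67 with Abcb1a, 0.46 with Flt1, 0.24 with Cdh5 and Tek, 0.08 with Pecam1 and 0.01 with Kdr. Slc2a1 and Ly6c1 passed with 0 of 9, by Spearman's rho, with rho from −0.32 to 0.34 and from −0.10 to 0.31. By Pearson's r, Slc2a1 passed with Cdh5 (r = 0.47, adjusted permutation p = 0.00589) and with Ly6c1 (r = 0.43, adjusted permutation p = 0.0141). Over the 9 pairs of Slc2a1, r lay between −0.34 and 0.71 up to number 5. From 6 it lay between −0.01 and 0.85, the highest being that with Cdh5. The points of such a correlation are libraries, and both genes of a pair share the dissection, depth and scaling of each.

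Cldn5 did not follow the other junction genes. Its rho was −0.12 with Cdh5 and 0.01 with Pecam1, and over its 9 pairs it lay between −0.40 and 0.26, with 3 above 0 (the grid of correlations). Its pair with Abcb1a was the only one of them that passed, with r = −0.43 and rho = −0.40 (permutation p = 0.00683 and 0.0124, adjusted p = 0.014 and 0.0254). That relation was −0.49 by r without the 2 farthest libraries, −0.59 within numbers up to 5 and −0.33 from 6. In the 33 libraries without those rich in myelin transcripts it was −0.18, so that it rests in part on the 5. In those 5 libraries Cldn5 ran from 28.6 to 53.1 CPM (median 37.2) and Abcb1a from 11.2 to 23.2 CPM (median 16.0), against medians of 25.6 and 32.6 CPM in the other 33.

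**Figure D4:**
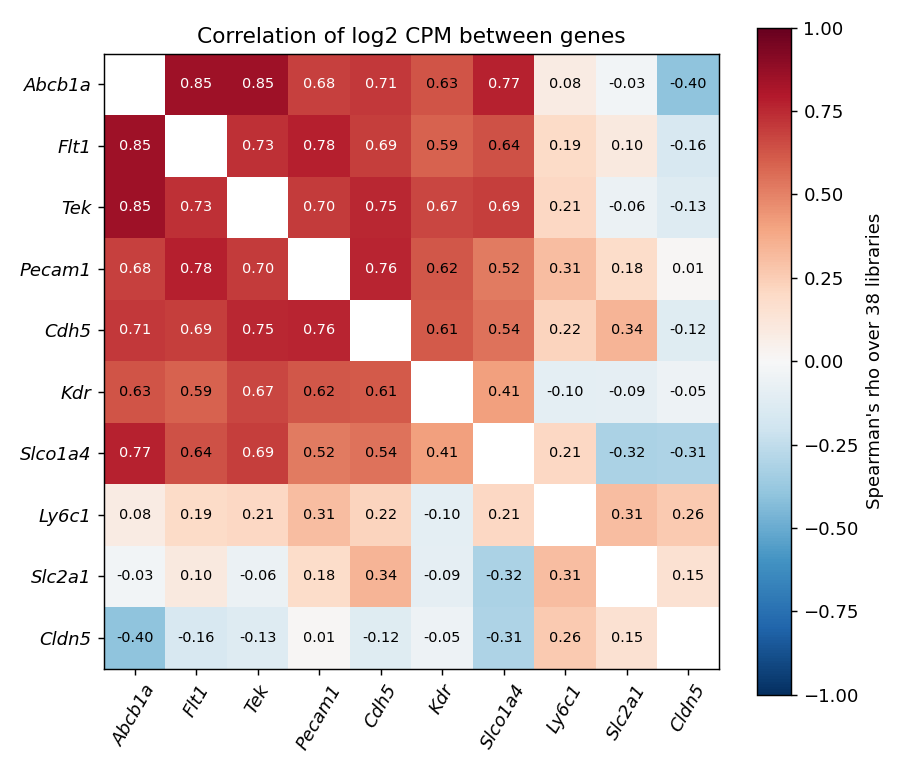
Spearman's rho of log2 CPM over the 38 libraries for each pair of genes (both axes, genes in the same order; colour scale from −1 to 1, value printed in each cell). The block of red cells at the upper left holds the 6 genes with rho from 0.59 to 0.85 and Slco1a4, and the last row and column show Cldn5, with rho from −0.40 to 0.26.

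A measure built on exon length moved with these genes. The length index of a library is a Spearman's rho across 16036 genes. It relates a gene's length, with all annotated exons merged, to the gene's log2 CPM relative to its mean over libraries. A low index thus means relatively less RNA from genes with long merged exons in that library. It ran from −0.38 to 0.29, with means ± SD of 0.06 ± 0.18 in control females, −0.01 ± 0.24 in stressed females, −0.05 ± 0.20 in control males and 0.155 ± 0.10 in stressed males (n = 10, 9, 10 and 9). Across the 38 libraries it correlated most with Abcb1a, at r = 0.78 and rho = 0.70 (permutation p = 1e-05 for both, adjusted p over the 10 genes 5e-05 and 1e-04), then with Flt1 (r = 0.66, rho = 0.53), Slco1a4 (r = 0.63, rho = 0.61), Tek (r = 0.62, rho = 0.50) and Kdr (r = 0.60, rho = 0.46), with adjusted permutation p-values of at most 0.000133 by r and 0.00633 by rho.

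Cldn5, whose 1416-base RNA comes from a single exon (chr16:18776847-18778262, plus strand), correlated with the index the opposite way, at r = −0.67 and rho = −0.63 (permutation p = 1e-05 and 4e-05, adjusted p = 5e-05 and 2e-04). Without the 2 farthest libraries these were 0.78 for Abcb1a and −0.64 for Cldn5 by r, in the 33 libraries 0.61 and −0.53, up to number 5 0.90 and −0.74, and from 6 0.60 and −0.64. Flt1, Tek and Kdr held less well within the later numbers, with r = 0.39, 0.11 and 0.08 from 6 against 0.82, 0.89 and 0.85 up to 5. Cdh5 had r = 0.46 and rho = 0.33 (adjusted p = 0.0057 and 0.0582), Pecam1 r = 0.38 and rho = 0.25 (adjusted p = 0.023 and 0.13), by permutation, and neither Slc2a1 nor Ly6c1 passed, with r = −0.17 and −0.24.

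With the length index as a covariate in the edgeR fit, an alternative added after the data were seen, the stress median of the 10 genes in males went from 0.195 to 0.06, that in females from −0.185 to −0.18, and the interaction median from 0.41 to 0.25. Abcb1a went from 0.33 to −0.008 in males and Cldn5 from −0.02 to 0.27. What sets the index was not tested.

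**Figure D5:**
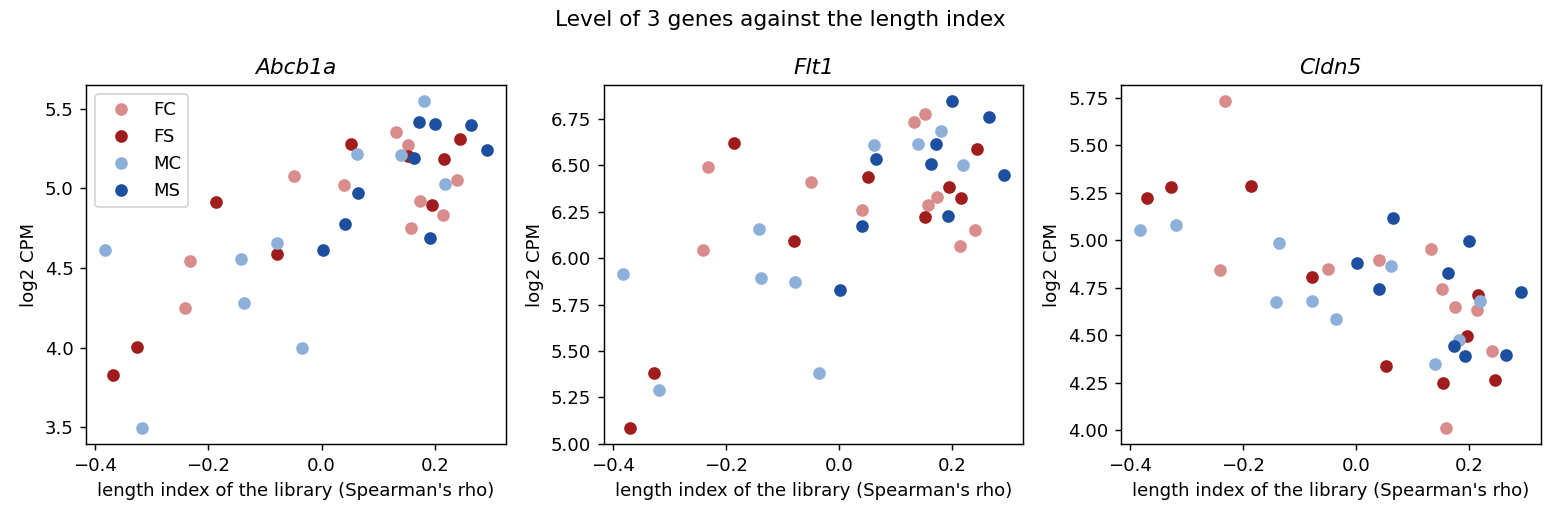
Log2 CPM (y axis) of Abcb1a, Flt1 and Cldn5 against the length index of each library (x axis, a Spearman correlation without unit) for the 38 libraries, coloured by group (FC, control females; FS, stressed females; MC, control males; MS, stressed males). Abcb1a and Flt1 rise along the axis (r = 0.78 and 0.66) and Cldn5 falls (r = −0.67).

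Other genes of the vessel wall gave a frame for the 10, in lists chosen with earlier results of these data known. None of their members passed in any stress comparison. Genes of a list were measured in the same libraries, so their directions are not separate observations. Of 25 further endothelial genes, 21 were below 0 with stress in females (median −0.18) and 18 above 0 in males (median 0.09), and the interaction was above 0 for 22 (median 0.22). Ly6a (−0.35 ± 0.12), a relative of Ly6c1, and the adhesion molecule Icam2 (−0.52 ± 0.21) had the smallest p-values in females, and the VE-PTP gene Ptprb (0.33 ± 0.18), whose product acts on Tek and Cdh5, the smallest in males. Summed over this list, the level of control females was 422 to 556 CPM (median 454) and that of stressed females 392 to 489 CPM (444). Control males had 324 to 484 CPM (416) and stressed males 389 to 513 CPM (420). A large part of this sum was S1pr1, which alone averaged 179 CPM over the 38 libraries, beside a median sum of 445 CPM.

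Among 18 further barrier transporters, 13 were below 0 in females (median −0.07) and 16 above 0 in males (median 0.14). The efflux transporter Abcc4 stood at −0.30 ± 0.125 in females and 0.235 ± 0.125 in males, with an unadjusted p of 0.0214 and 0.0682 and adjusted p-values of 1 and 0.863 in edgeR's test. Mfsd2a, a lipid transporter that keeps vesicle traffic low at the barrier, was at −0.16 ± 0.15 and 0.13 ± 0.15. Abcb1b, the near copy of Abcb1a, was at 0.06 ± 0.21 and 0.005 ± 0.211. Of 11 tight junction partners of Cldn5, 9 were below 0 in females (median −0.07) and 9 above 0 in males (median 0.16). The scaffold Tjp1 (ZO-1) was at −0.14 ± 0.155 and 0.28 ± 0.155, and Ocln (occludin) at 0.002 ± 0.193 and 0.25 ± 0.19. The junction adhesion molecule F11r was at 0.35 ± 0.16 in males (unadjusted p = 0.0318, adjusted p = 0.863 in edgeR's test). F11r and Cgnl1 of this list were highest in stressed male 5, the library with choroid plexus transcripts. They stood there at 14.2 and 57.1 CPM, where the stressed male medians were 7.62 and 20.7 CPM.

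For the ligands and partners of the receptors, 6 of 10 were above 0 in females and 7 in males, with medians of 0.03 and 0.12. Vegfa, the main ligand of Kdr and Flt1, was at 0.06 ± 0.11 and 0.005 ± 0.108, and the Tek ligands Angpt1 and Angpt2 at 0.004 ± 0.267 and −0.04 ± 0.30 in females and at 0.37 ± 0.27 and 0.445 ± 0.299 in males. The highest Angpt2 value was 2.63 CPM in stressed male 5, where the stressed male median was 0.998 CPM. Pgf, a ligand of Flt1, was at 0.24 ± 0.22 in females and −0.37 ± 0.22 in males. Of 19 genes of the Wnt pathway that induces the barrier, 10 and 14 were above 0 in females and males (medians 0 and 0.15). Among 7 tested of 9 genes of vesicle traffic and leukocyte adhesion, 5 and 4 were above 0, with Plvap, a protein of leaky vessels, at 0.045 ± 0.222 in females and −0.26 ± 0.22 in males.

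Segments of the vessel tree and neighbouring cells were counted the same way. Arterial genes were above 0 for 8 of 9 in females (median 0.11) and 4 of 9 in males, venous genes for 2 and 4 of 5, and capillary genes for 2 and 5 of 7. The arterial genes with the smallest p-values in females went opposite ways, Gkn3 at 0.60 ± 0.28 and Sema3g at −0.46 ± 0.24. Gkn3 was at 7.2 CPM in stressed female 8, where the stressed female median was 2.67 CPM. Pericyte genes were below 0 for 7 of 11 in females (median −0.08) and above 0 for 7 of 11 in males (median 0.09), with Notch3 at 0.225 ± 0.108 in males. Smooth muscle genes were above 0 for 6 of 7 in females (median 0.15) and below 0 for 4 of 7 in males (median −0.21), and fibroblast genes above 0 for 7 of 8 in males (median 0.23). The fibroblast gene Igf2 was at 231 CPM in stressed male 5, where the stressed male median was 34.4 CPM. Choroid plexus genes were above 0 for 10 of 10 in males (median 1.82), where the list summed to 3340 CPM in stressed male 5. Oligodendrocyte genes were below 0 for 10 of 10 in females and 9 of 10 in males. Ependymal genes were above 0 for 7 of 7 in females (median 0.21) and 3 of 7 in males (median −0.09), and their part in the values of the 10 genes was not tested. Of the blood list only Alas2 was tested, at −0.18 ± 0.21 and −0.19 ± 0.21, the 4 adult globin genes being listed at 0 in every library.

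Some of these genes differed between the number runs by edgeR's test, where 45.5% of all tested genes did. Of the 25 endothelial genes 4 rose and 2 fell, a share below that background, the largest change being Nos3, the endothelial nitric oxide synthase (0.75 ± 0.09, adjusted p = 6.3e-08). Of the 18 transporters 4 rose and 2 fell, also a share below it, among them Mfsd2a (0.35 ± 0.09, adjusted p = 0.00178) and the monocarboxylate carrier Slc16a1 (fell by 0.33 ± 0.06, adjusted p = 7.93e-05). The Norrin co-receptor genes split, with Lrp5 up by 0.67 ± 0.09 and Tspan12 down by 0.66 ± 0.09 on the log2 scale, with adjusted p-values of 1.74e-07 and 1.6e-07. Vwf rose by 0.81 ± 0.15 (adjusted p = 3.87e-05), Cspg4 of the pericyte list by 0.69 ± 0.09 (2.05e-07), and Rgs5 of the same list fell by 0.51 ± 0.10 (0.000124). The smaller differences of the 10 genes thus stood beside larger ones, in both directions, among genes of these lists. Which cells of the dissections these RNAs came from was not tested.

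A mean of the 10 genes, each centred and scaled over the libraries, was used to name the genes whose pattern was closest. Its highest value was in control female 2 and its lowest in control male 3. The genes outside the 10 with the highest Spearman's rho over the 38 libraries were Cyyr1 (0.86), Ptprb (0.856), Adgrf5 (0.85), She (0.83), Cd34 (0.80), Cxcl12 (0.79), Hmcn1 (0.79), Itga6 (0.78), Adgrl4 (0.77) and Ceacam1 (0.77). In the 33 libraries without those rich in myelin transcripts these lay between 0.69 (Ceacam1) and 0.84 (Adgrf5). Of these, Ptprb, She, Cd34 and Adgrl4 were in the list of 25 endothelial genes, and Cxcl12 in the capillary list.

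Of the 10 genes themselves, which are part of that mean, Pecam1 (0.90), Flt1 (0.86), Tek (0.86) and Cdh5 (0.845) lay closest, then Abcb1a (0.79), Kdr (0.66) and Slco1a4 (0.65). Ly6c1 (0.41), Slc2a1 (0.20) and Cldn5 (0.03) lay within the range of genes of no endothelial list, such as astrocyte genes, whose rho ran from −0.205 to 0.46. The median was 0.43 over the 25 endothelial genes, 0.455 over the tight junction partners, 0.33 over the transporters, 0.22 over the pericyte genes and −0.002 over all 16309 tested genes.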

How the data were processed

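Poly-A-enriched RNA from adBNST microdissections had been made into stranded libraries, per the labels' protocols. The authors' deposited values were unscaled read counts for each gene symbol, with 0 columns of other samples. STAR, featureCounts, DESeq2 and the mm10 build are named in the submitters' processing notes; the sources used here give no annotation, strand setting or filter. The 10 genes and the lists were chosen with earlier results of these data known.

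Counts were tested with edgeR 4.0.16 (quasi-likelihood, filterByExpr by group, TMM, R 4.3.3) with a mean per group. The filter kept 16309 genes, 3439 of the table's genes having no count at all, and Benjamini-Hochberg adjustment ran over every gene kept, with 0.05 as the threshold. Fold changes are log2 with their standard error. CPM was computed from the counts, and 1 count was worth 0.0116 to 0.114 CPM. On simulated counts at this design, 83% of 200 genes changed by a log2 fold of 1 were recovered, with 13 false calls.

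Permutation p-values of correlations used 100000 resamples (scipy 1.17.1). Named beside the 10 genes were 2 near copies, the 2 genes with the smallest p per list and sex, list members that passed in any comparison, and the 10 genes with the closest pattern; not all of these are printed. Ligands and partners given for their role (Mfsd2a, Ocln, Tjp1, Vegfa, Angpt1, Angpt2, Plvap) were added after values were seen. Alternatives were DESeq2 1.42.0, limma 3.58.1 voom, other size factors, no filter, terms for replicate number, number run, endothelial level and length index, and libraries left out. The closest libraries of each group differed beyond counting noise (chi-square per gene of 7.91 to 19), so none was treated as a copy.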

Additional observations from a re-analysis of the deposited data

Results flagged for a closer look

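In 3 of the 40 sets of values tested (10 genes in 4 groups) 1 library lay far from the rest of its group; chance flags about 1 in 20 sets. Cldn5 was at 53.1 CPM in control female 6, where the next highest control female was at 30.9 CPM. Cdh5 was at 24 CPM in stressed male 5, the library with choroid plexus transcripts, and at 16.6 CPM in the next highest stressed male. Pecam1 was at 12.4 CPM in stressed female 2, where the next lowest was at 17.3 CPM. Control female 6 and stressed female 2 were among the 5 libraries rich in myelin transcripts, and the part of those transcripts in these values was not tested.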

How the results depend on the processing

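Of 560 values of the 10 genes under alternatives, in 5 of the 7 comparisons, 507 kept their direction and side of the threshold, 51 changed sign and 2 newly passed. The other two comparisons are outside this tally: for male minus female in stressed mice 7 genes above 0 became 3 within numbers from 6, and for stress averaged over the sexes 4 became 7 with voom. No gene of the 10 passed in any stress or sex comparison under any alternative run, and the stress and interaction counts over all genes stayed at 0. All 51 reversals were of estimates that did not pass in either fit, and the cause was not tested.

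With the endothelial covariate, log2 estimates of stress in females were 0.004 for Cldn5, 0.097 for Flt1, 0.101 for Tek, 0.223 for Abcb1a and 0.164 for Slco1a4. The interaction was then −0.047 for Cldn5, −0.086 for Ly6c1, −0.035 for Abcb1a and −0.132 for Slco1a4, and male minus female in controls was 0.132 for Flt1, 0.192 for Kdr, 0.141 for Tek, 0.159 for Abcb1a and 0.161 for Slco1a4. With the length covariate, added after the data were seen, stress in females was 0.027 for Abcb1a and 0.083 for Slco1a4, and stress in males 0.271 for Cldn5, −0.008 for Abcb1a and −0.126 for Slco1a4. The interaction was −0.035 for Abcb1a and −0.209 for Slco1a4, and male minus female in controls 0.006 for Kdr and 0.060 for Slco1a4.

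With voom, stress was 0.037 for Abcb1a in females and 0.006 for Cldn5 in males, and male minus female in controls 0.071 for Cldn5. Without the 5 libraries rich in myelin transcripts these were 0.029 for Abcb1a and 0.027 for Slco1a4 in females, 0.024 for Cldn5 in males and 0.051 for Cldn5 between the sexes in controls. Within numbers up to 5, Cldn5 was 0.130 in females, 0.043 in males and −0.087 in the interaction. Within numbers from 6, Abcb1a was 0.143 and Slco1a4 0.416 in females, Slc2a1 −0.009 in males and Slco1a4 −0.221 in the interaction. A number-run term gave 0.012 for Slco1a4 in females.

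Between the number runs, voom gave −0.093 for Cldn5, −0.139 for Cdh5, −0.069 for Flt1, −0.106 for Kdr and −0.102 for Pecam1, and leaving out the 5 libraries −0.071 for Cdh5, −0.104 for Flt1, −0.092 for Kdr and −0.079 for Pecam1. Cdh5 was −0.007 without the filter and −0.013 with the endothelial covariate, and with the length covariate Cldn5 was −0.012 and Abcb1a 0.041. Tek passed with voom (−0.276) and without the 5 libraries (−0.245). Leaving out 1 library at a time kept Slc2a1 (0.2 to 0.261), Ly6c1 (−0.264 to −0.208) and Slco1a4 (−0.509 to −0.405) past the threshold, with 6981 to 7839 genes called.

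Counts of genes between the sexes in controls, 11 in the fit reported, were 21 with DESeq2, 30 with voom, 7 up to number 5 and 110 with the length covariate. In stressed mice, 14 became 24 with DESeq2, 8 up to number 5 and 6 from number 6. Same-numbered libraries had deviations correlated over 0.1 in 7 of 9 pairs of control and stressed females, 6 of 9 of control and stressed males, 7 of 10 of control females and males and 8 of 9 of stressed females and males, so in no case in every pair, and they were not taken as paired. With the replicate block 0 genes were called for stress, 13 between the sexes in controls and 14 in stressed mice, and the stress medians of the 10 genes were −0.204 in females and 0.196 in males. The smallest count behind a value of the 10 genes was 57, so counting error was small beside the spread between libraries.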
